A study of Mus musculus with 3 samples.

Results

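Mycn, Myc, Srm, Odc1, Ncl, Npm1, Nop56, Nolc1, Noc4l and Rrp12 are 10 genes of the Myc family, of polyamine synthesis and of the nucleolus. They were taken by name from the gene tables of 3 single-cell libraries of mouse embryonic lung. This list and the pathway lists below were chosen with earlier results of these data known. Their counts set against all genes are therefore descriptions and not independent tests. All 10 genes were among the 30406 Ensembl IDs that every table held. The cells came from lungs of C57/B6 embryos at embryonic stage E14.5, taken from 2 pregnant females and pooled before enzymatic dissociation. In 2 libraries (Epcam+ Icam+ libraries 1 and 2) the cells had been sorted for the epithelial surface protein Epcam and for the adhesion protein Icam1, and in 1 library (the Epcam+ library) for Epcam alone. The labels name no mutation and no treatment in any library. They do not say whether the libraries came from separate pools of lungs, so a p-value here measures the spread among these samples alone, which may be technical. In that order the libraries held 4739, 4531 and 3697 barcodes with 74170599, 67843828 and 84460347 UMIs (unique molecular identifiers, 1 per captured RNA molecule).

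Mycn and Myc are transcription factors that pair with Max and bind E-boxes, short DNA elements of which CACGTG is the best known. In many cell types they raise the output of the nucleolus, where ribosomal RNA is transcribed, modified and assembled with proteins, and of polyamine synthesis. In the embryonic mouse lung, Mycn is known for its expression in the growing distal epithelium, where it is needed for branching and for the proliferation of progenitor cells.

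Cells were grouped within each library, with the 10 genes and the other genes of their pathways left out of the clustering. The clusters in which a list of 10 markers of the distal tip was the most raised are called Sox9-high here, after their transcription factor Sox9, since their leading genes do not all support a cell type name. In cluster 10 of Epcam+ Icam+ library 1 and clusters 1 and 9 of Epcam+ Icam+ library 2, more markers of alveolar type 2 cells (Sftpa1, Sftpb, Lamp3) than of the tip stood among the 10 leading genes. Sox9 was at 73.1, 80.7 and 94.9 CPM, counts scaled to the total UMIs of a class, in the Sox9-high cells of Epcam+ Icam+ libraries 1 and 2 and the Epcam+ library, against 19.0, 15.8 and 36.9 CPM in airway-like cells. Sox2, a transcription factor of the proximal airway, stood at 0, 0.246 and 0.807 CPM in Sox9-high cells and at 40.7, 86.1 and 67.7 CPM in airway-like cells. The surfactant gene Sftpc was at 13770 and 14899 CPM in the Sox9-high cells of the Epcam+ Icam+ libraries and at 2938 CPM in those of the Epcam+ library.

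Dividing epithelial cells, with at least 1000 CPM summed over 10 genes of M phase, were set apart as mitotic epithelial cells, and those of the Sox9-high clusters as mitotic Sox9-high cells. Other distal cells with at least 200 CPM and at least 2 UMIs of Hopx and Clic5, markers of alveolar type 1 cells, formed the Hopx/Clic5-positive class, which the Epcam+ library lacked (0 cells). Macrophage-like cells, of which some were dividing, had C1qb at 2518, 2507 and 2521 CPM. The Sox9-high class held 162, 152 and 387 cells, the airway-like class 261, 165 and 337, and the Hopx/Clic5-positive class 180 and 314. Mitotic epithelial cells numbered 217, 212 and 397, mitotic Sox9-high cells 90, 62 and 270, and macrophage-like cells 508, 500 and 53. Levels are CPM of all UMIs of a class in a library. Since 1 end of each molecule was tagged, they need no correction for transcript length. Intervals are exact 95% Poisson intervals for levels and exact 95% binomial intervals for shares of cells, and both cover counting error only.

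The promoters of the members were examined for the E-box and are shown first because the genes are set against Mycn and Myc throughout. Windows from 250 bases before to 50 bases after the annotated start (RefSeq, GRCm38.p6) were at hand for 6 of the 10 members: Mycn, Odc1, Ncl, Nop56, Nolc1 and Noc4l. Myc, Srm, Npm1 and Rrp12 are named only. None of the 6 windows held CACGTG, which reads alike on both strands and stood in 7.15% of all 32851 windows and in those of 8.09% of the 27025 genes. Among other genes of the pathway it was in the windows of 3 of 10 polyamine genes, 12 of 41 genes of the small-subunit processome, 9 of 46 of large-subunit assembly, 2 of 16 of RNA polymerase I and 0 of 11 of the box C/D and H/ACA particles. The sequence TTTGGCGC, searched on both strands after the windows had been read and not overlapping CACGTG, stood at positions -183 and -168 relative to the start of Mycn and, on the other strand, at -224 relative to that of Ncl. It was in 0.514% of all windows and in none of the windows of the other genes in the pathway groups just named. Since it was picked from the members' own windows, these shares test nothing. A match is a description of the letters and not a bound site. The 3 windows printed here run 5′ to 3′ on the gene's own strand, with matches in capitals: TTTGGCGC in Mycn at chr12:12941787-12942086, minus strand, its reverse complement GCGCCAAA in Ncl at chr1:86359406-86359705, minus strand, and CACGTG in Nle1, a gene of large-subunit assembly, at chr11:82908346-82908645, minus strand.
Mycn: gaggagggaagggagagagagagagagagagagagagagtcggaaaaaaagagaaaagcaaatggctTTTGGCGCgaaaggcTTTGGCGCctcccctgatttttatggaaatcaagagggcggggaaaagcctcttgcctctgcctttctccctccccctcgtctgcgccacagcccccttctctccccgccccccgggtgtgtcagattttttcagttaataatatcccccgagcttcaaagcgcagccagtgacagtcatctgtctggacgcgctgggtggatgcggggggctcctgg
Ncl: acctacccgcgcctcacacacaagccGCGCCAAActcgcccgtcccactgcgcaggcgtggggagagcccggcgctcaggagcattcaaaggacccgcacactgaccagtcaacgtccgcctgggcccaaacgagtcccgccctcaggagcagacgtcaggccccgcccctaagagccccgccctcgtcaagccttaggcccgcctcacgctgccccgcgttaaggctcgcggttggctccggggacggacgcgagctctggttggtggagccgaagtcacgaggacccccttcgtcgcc
Nle1: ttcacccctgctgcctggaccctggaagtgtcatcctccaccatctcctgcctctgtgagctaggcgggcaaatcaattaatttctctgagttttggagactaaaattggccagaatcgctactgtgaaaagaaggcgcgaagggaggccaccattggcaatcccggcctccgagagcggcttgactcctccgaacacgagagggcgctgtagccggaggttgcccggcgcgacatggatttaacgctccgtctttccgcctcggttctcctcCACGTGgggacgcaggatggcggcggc

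The 2 Myc genes ran in opposite directions along the epithelium. Mycn (chr12:12936093-12941914, minus strand) was at 18.8, 21.9 and 43.0 CPM in Sox9-high cells of Epcam+ Icam+ libraries 1 and 2 and the Epcam+ library, against 11.1, 9.32 and 25.8 CPM in airway-like cells. Myc (chr15:61985391-61990374, plus strand) was at 12.4, 14.52 and 8.88 CPM in Sox9-high cells, against 48.9, 48.4 and 19.3 CPM in airway-like cells. Within each library Mycn was higher and Myc lower in Sox9-high cells, whereas across libraries the Mycn levels overlapped, the Epcam+ airway-like value lying above both Epcam+ Icam+ Sox9-high values. The Myc levels did not overlap. These values rest on 76, 89 and 533 Mycn UMIs and 50, 59 and 110 Myc UMIs in Sox9-high cells, and on 61, 26 and 233 Mycn UMIs and 268, 135 and 174 Myc UMIs in airway-like cells. The intervals of Mycn in Sox9-high cells ran over 14.8 to 23.5, 17.6 to 27.0 and 39.5 to 46.8 CPM. With library as a term, Mycn rose in Sox9-high cells by 0.92 on the log2 scale (SE 0.15, adjusted p = 0.00251 by edgeR's quasi-likelihood test) and Myc fell by 1.53 (SE 0.19, adjusted p = 0.000543).

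The same held in each Sox9-high cluster, whichever genes led it. Mycn was at 16.5 and 20.8 CPM in Sox9-high clusters 0 and 10 of Epcam+ Icam+ library 1, at 28.4 and 19.0 CPM in clusters 1 and 9 of library 2, and at 40.8 and 46.9 CPM in clusters 3 and 5 of the Epcam+ library. Each of them lay above every airway-like cluster of its library, the highest of which was at 11.1, 9.32 and 26.2 CPM. Myc was at 15.4 and 9.68 CPM, 20.5 and 11.8 CPM, and 9.51 and 7.81 CPM in the same Sox9-high clusters, below every airway-like cluster of the library, the lowest of which was at 48.9, 48.4 and 18.8 CPM. Mycn UMIs outnumbered Myc UMIs in Sox9-high cells by a ratio of 1.52, 1.51 and 4.85. In airway-like cells that ratio was 0.228, 0.193 and 1.34, so Myc UMIs were the more numerous in the airway of both Epcam+ Icam+ libraries and Mycn UMIs in that of the Epcam+ library.

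**Figure D1:**
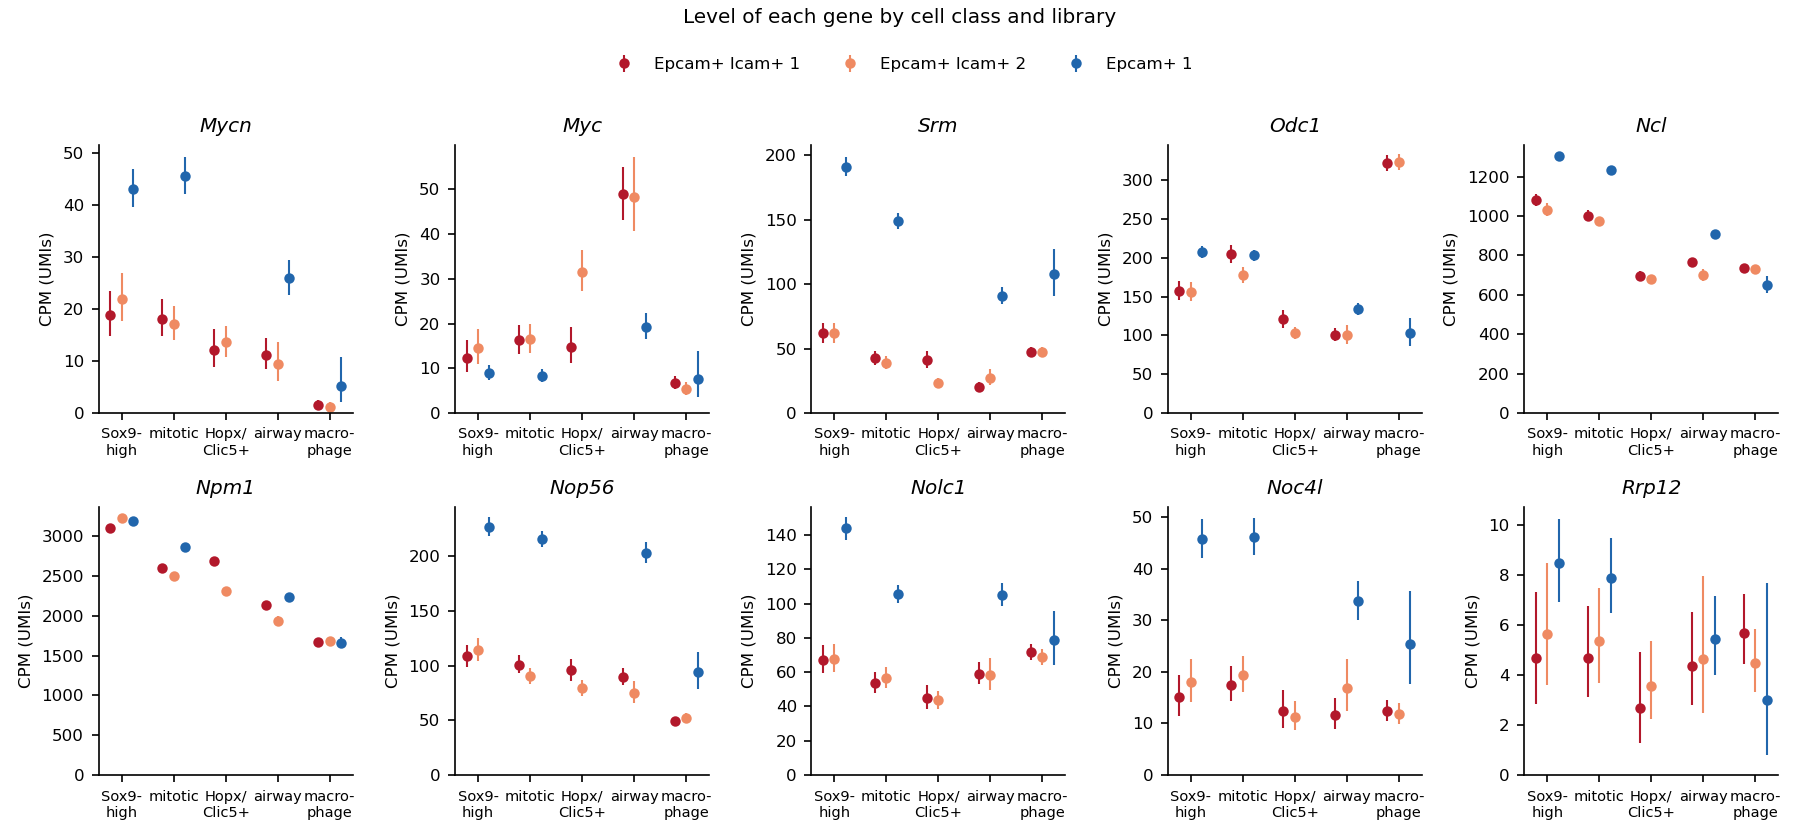
Level of each of the 10 genes in 5 cell classes of the 3 libraries. The y axes give CPM of all UMIs of the class, points are libraries and bars are exact 95% Poisson intervals. Myc stands highest in airway-like cells (48.9, 48.4 and 19.3 CPM), and the Epcam+ library lies above both Epcam+ Icam+ libraries for Mycn, Srm, Nop56, Nolc1 and Noc4l in epithelial classes.

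Hopx/Clic5-positive cells, present in the Epcam+ Icam+ libraries alone, had a Mycn level between those of the other epithelial classes in library 1 and library 2 alike. Mycn was at 18.8 and 21.9 CPM in Sox9-high cells and at 12.1 and 13.6 CPM in Hopx/Clic5-positive cells of libraries 1 and 2, with no overlap (log2 fold change 0.66, SE 0.21, edgeR adjusted p = 0.0153). Myc was at 12.4 and 14.52 CPM in Sox9-high cells and at 14.8 and 31.6 CPM in Hopx/Clic5-positive cells, again with no overlap of these values (log2 fold change -0.78, SE 0.21, adjusted p = 0.00197). Their counting intervals did overlap in library 1. For Myc they were 9.17 to 16.3 and 11.1 to 19.2 CPM, on 50 and 55 UMIs, and for Mycn 14.8 to 23.5 and 8.82 to 16.2 CPM. In library 2 the intervals were apart for both genes. The Myc values of the Hopx/Clic5-positive cells differed by cluster. In library 2 Myc was at 22.7, 32.2 and 48.4 CPM in clusters 3, 5 and 10, the last led by Sprr1a, Plaur, F3, Lgals3, Hmox1, Cdkn1a and Fosl1, and in library 1 it was at 19.6 and 12.04 CPM in clusters 0 and 7. With 2 libraries this comparison had 1 residual degree of freedom. The Mycn call was lost with DESeq2 (adjusted p = 0.75), with cells of at least 5000 UMIs (0.113), with doublets kept (0.42) and at a clustering resolution of 2 (0.0619). The Myc call was lost with DESeq2 (0.66), with doublets kept (0.0515), without library as a term (0.0611) and at a stricter gate on Hopx and Clic5 (0.206).

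At 1 common depth of 5000 UMIs per cell Sox9-high and airway-like cells kept their order for both genes. A Mycn UMI was found in 9.94% of Sox9-high cells of Epcam+ Icam+ library 1 (16 of 161 cells, interval 5.79 to 15.6%), in 7.95% in library 2 (12 of 151) and in 20.6% in the Epcam+ library (79 of 384, interval 16.6 to 24.97%). In airway-like cells the shares were 3.94%, 4.05% and 10.3%. A Myc UMI was found in 6.83%, 7.95% and 4.17% of Sox9-high cells and in 22.4%, 16.2% and 7.25% of airway-like cells. Each share of Mycn was larger, and each share of Myc smaller, in the Sox9-high than in the airway-like cells of its library. In Hopx/Clic5-positive cells of libraries 1 and 2 the Mycn shares were 3.33% (6 of 180) and 7.67% (24 of 313). They lay below the airway-like share in library 1 and near the Sox9-high share in library 2. The Myc shares of these cells, 10% and 12.8%, lay between the Sox9-high and airway-like shares. Both genes were seen together in 1, 3 and 2 Sox9-high cells. In macrophage-like cells a Mycn UMI was found in 0.828% (4 of 483), 0.855% (4 of 468) and 0 of 51 cells, for which the interval reaches 6.98%. Without thinning, 29.0%, 39.5% and 63.6% of Sox9-high cells had a Mycn UMI, at median depths of 24561, 25832.5 and 30624 UMIs, against 3.35%, 2.20% and 9.43% of macrophage-like cells at 22549, 22989.5 and 25240 UMIs. Thinning left out 1, 1 and 3 Sox9-high, 7, 17 and 6 airway-like and 25, 32 and 2 macrophage-like cells as too shallow.

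**Figure D2:**
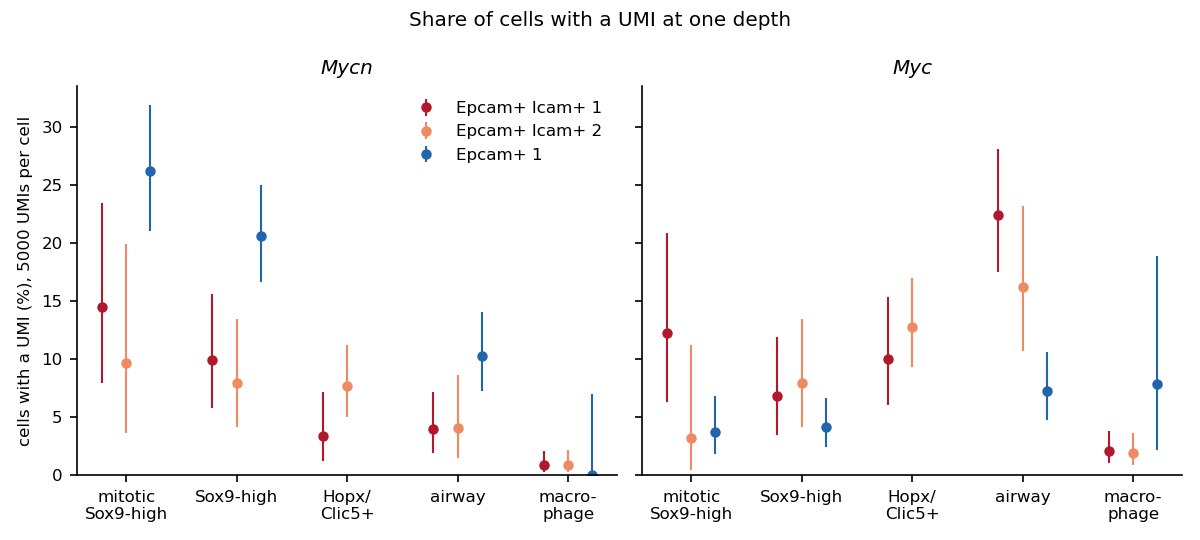
Share of cells with at least 1 UMI of Mycn (left) or Myc (right) after every cell was thinned to 5000 UMIs. The y axis is the percent of cells, points are libraries and bars are exact 95% binomial intervals. In the Epcam+ library Mycn is found in 26.2% of mitotic and 20.6% of other Sox9-high cells, and in Epcam+ Icam+ library 1 Myc is found in 22.4% of airway-like cells.

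Both polyamine genes were higher in Sox9-high cells than in airway-like and Hopx/Clic5-positive cells. Srm (chr4:148591503-148594993, plus strand), spermidine synthase and a direct target of Myc factors in several cell types, was at 62.0, 61.8 and 191 CPM in Sox9-high cells against 20.2, 27.3 and 91.0 CPM in airway-like cells, and at 40.9 and 23.2 CPM in Hopx/Clic5-positive cells. Odc1 (chr12:17544794-17551505, plus strand), ornithine decarboxylase, the rate-limiting enzyme that feeds polyamine synthesis, was at 158, 157 and 208 CPM in Sox9-high cells against 101, 101 and 134 CPM in airway-like cells, and at 121 and 103 CPM in Hopx/Clic5-positive cells. For Odc1 no Sox9-high library overlapped an airway-like library, whereas for Srm the Epcam+ airway-like value lay above both Epcam+ Icam+ Sox9-high values. Within libraries, Srm in Sox9-high cells was 3.06, 2.27 and 2.102 times its airway-like level and Odc1 was 1.57, 1.55 and 1.55 times. The log2 fold change over airway-like cells was 1.33 for Srm (SE 0.13, edgeR adjusted p = 0.00017), the largest rise among the 10 in that comparison, and 0.69 for Odc1 (SE 0.09, adjusted p = 0.000891). Over Hopx/Clic5-positive cells it was 1.00 for Srm (SE 0.17, adjusted p = 1.12e-07) and 0.49 for Odc1 (SE 0.13, adjusted p = 0.00293), a call that Odc1 lost with DESeq2 (0.115).

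Among the 6 nucleolar genes, the 2 most abundant, Ncl and Npm1, were higher in Sox9-high cells of every library. Ncl (chr1:86344719-86359400, minus strand), nucleolin, which binds nascent ribosomal RNA and its chromatin, was at 1081, 1033 and 1306 CPM in Sox9-high cells, against 766, 699 and 910 CPM in airway-like cells. Npm1 (chr11:33152287-33163206, minus strand), nucleophosmin, a chaperone of ribosome assembly, was at 3100, 3228 and 3186 CPM in Sox9-high cells, against 2139, 1939 and 2232 CPM in airway-like cells. The classes did not overlap for either gene. Over airway-like cells the log2 fold change was 0.58 for Ncl (SE 0.08, edgeR adjusted p = 0.000691) and 0.65 for Npm1 (SE 0.07, adjusted p = 0.000233). In Hopx/Clic5-positive cells of libraries 1 and 2 Ncl was at 695 and 680 CPM and Npm1 at 2689 and 2318 CPM, below both Sox9-high values of those libraries. Over these cells the log2 fold change was 0.61 for Ncl (SE 0.11, adjusted p = 1.32e-06) and 0.34 for Npm1 (SE 0.11, adjusted p = 0.013). The Npm1 call was lost with DESeq2 (adjusted p = 0.0716), at a clustering resolution of 0.5 (0.0553) and at the stricter gate on Hopx and Clic5 (0.0709). Annotated exons of Ncl and Nop56 overlap small nucleolar RNA genes on the same strand that are not in every gene table.

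Nop56 and Nolc1 differed less. Nop56 (chr2:130274430-130279313, plus strand), a core protein of the box C/D particles that guide ribosomal RNA methylation, was at 108, 114 and 227 CPM in Sox9-high cells, against 89.8, 75.3 and 203 CPM in airway-like cells. Nolc1 (chr19:46075863-46085530, plus strand), a chaperone of small nucleolar ribonucleoproteins, was at 67.2, 67.7 and 144 CPM in Sox9-high cells, against 59.1, 58.5 and 105 CPM in airway-like cells. Each was higher in Sox9-high cells of each library, while the levels of the 3 libraries overlapped between the classes. Nop56 rose by 0.39 on the log2 scale (SE 0.10, edgeR adjusted p = 0.0234) and Nolc1 by 0.36 (SE 0.11, adjusted p = 0.0476). The Nop56 call was lost without Epcam+ Icam+ library 1 (adjusted p = 0.160) or 2 (0.0501), and the Nolc1 call without Epcam+ Icam+ library 1 (0.207) or the Epcam+ library (0.297). With cells of at least 5000 UMIs both were lost (0.0708 for Nop56 and 0.0669 for Nolc1), in a fit of 2 libraries, since clustering those cells anew named only 6 cells of Epcam+ Icam+ library 2 airway-like. Nolc1 was lost also with DESeq2 (0.087) and with doublets kept (0.105). Against the 96.0 and 79.4 CPM of Nop56 in Hopx/Clic5-positive cells the log2 fold change was 0.35 (SE 0.14, adjusted p = 0.0743), and against the 44.9 and 43.7 CPM of Nolc1 it was 0.60 (SE 0.16, adjusted p = 0.00233, and 0.214 with DESeq2).

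Noc4l and Rrp12, known from yeast as assembly factors of the small ribosomal subunit and, for Rrp12, of pre-ribosome export, did not pass the test between epithelial classes. Noc4l (chr5:110648418-110653417, minus strand) was at 15.1, 17.97 and 45.7 CPM in Sox9-high cells and at 11.7, 16.9 and 33.7 CPM in airway-like cells (log2 fold change 0.40, SE 0.15, edgeR adjusted p = 0.0919). Without Epcam+ Icam+ library 2 it passed (0.50, adjusted p = 0.0385). Rrp12 (chr19:41862851-41896173, minus strand) was the least abundant member, at 4.69, 5.66 and 8.48 CPM in Sox9-high cells and 4.38, 4.66 and 5.43 CPM in airway-like cells (log2 fold change 0.48, SE 0.25, adjusted p = 0.191). Both were above their airway-like level in each library.

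Over airway-like cells 7 of the 10 members thus rose and 1, Myc, fell, where 12.4% of the 11479 genes tested rose and 11.9% fell. The median log2 fold change of the members was 0.53 and that of all genes tested 0.00. Over Hopx/Clic5-positive cells 6 of the 10 rose and 1 fell, where 8.78% of 10734 genes rose and 7.91% fell. The fit without library as a term called 0 of the 10 over airway-like cells, and for the 8 genes called with that term its adjusted p ran from 0.120 for Npm1 to 0.923 for Nop56. DESeq2 called 2 of the 10 over Hopx/Clic5-positive cells. The cell cycle moved with the classes: the S-phase genes summed to 3752, 3399 and 4611 CPM in Sox9-high cells against 2303, 1975 and 3936 CPM in airway-like cells, and the G2/M genes to 5666, 5423 and 5225 CPM against 3498, 2907 and 4675 CPM. Their part in the result was not tested. Median depth was 24561, 25832.5 and 30624 UMIs per Sox9-high cell against 18394, 16052 and 22752 UMIs per airway-like cell. Markers of alveolar type 1 cells summed to 378, 310 and 161 CPM in Sox9-high cells, with 8, 8 and 6 of 8 markers seen. Macrophage markers summed to 9.39, 12.3 and 26.0 CPM there and to 13.1, 13.6 and 27.6 CPM in airway-like cells. Epithelial barcodes with at least 200 CPM of macrophage markers had been left out beforehand.

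**Figure D3:**
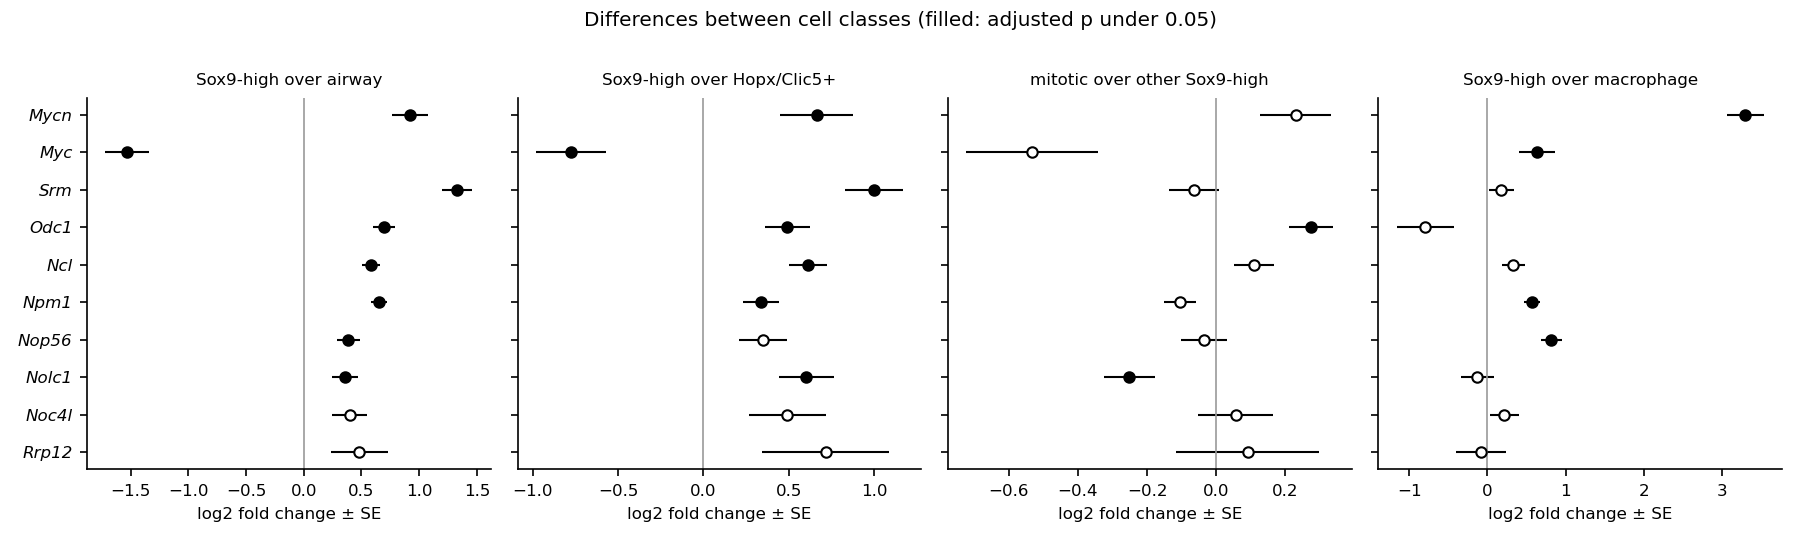
Log2 fold changes of the 10 genes between cell classes. The x axes give the edgeR estimate with its standard error as a bar, and filled points passed an adjusted p of 0.05. Mycn lies right of 0 and Myc left of 0 over airway-like and Hopx/Clic5-positive cells, and Mycn has the largest difference over macrophage-like cells (3.30).

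Per cell, the 8 members other than Mycn and Myc were higher at each quartile in Sox9-high cells than in airway-like, Hopx/Clic5-positive and macrophage-like cells. At 5000 UMIs per cell they summed to a median of 22, 22 and 26.5 UMIs in Sox9-high cells (quartiles 18 and 26, 18 and 27, and 22 and 31.25), against 15, 14 and 17 UMIs in airway-like cells. Hopx/Clic5-positive cells had medians of 17 and 15 UMIs and macrophage-like cells of 13, 12 and 13 UMIs. Mitotic Sox9-high cells, with medians of 21.5, 24 and 27 UMIs, were not lower throughout. The lowest quartile of Sox9-high cells lay above the airway-like median in each library, and the ranges of the classes overlapped. As CPM, the 8 genes summed to 4597, 4685 and 5316 in Sox9-high cells, 3191, 2921 and 3714 in airway-like cells, 3702 and 3262 in Hopx/Clic5-positive cells, and 2917, 2918 and 2728 in macrophage-like cells. Ncl and Npm1 make up most of these sums.

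**Figure D4:**
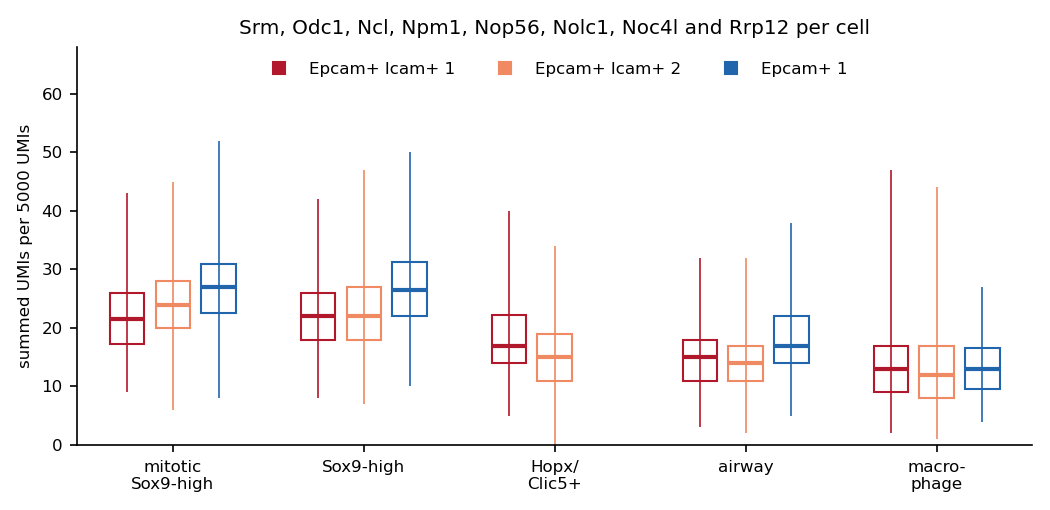
UMIs of the 8 members other than Mycn and Myc summed per cell at 5000 UMIs per cell. Boxes give quartiles, the bar in each the median and lines the lowest and highest cell, by class and library. Sox9-high cells have medians of 22, 22 and 26.5 UMIs, above those of airway-like cells (15, 14 and 17) and macrophage-like cells (13, 12 and 13).

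Sox9-high cells with and without a Mycn UMI did not differ detectably in the other members. At 5000 UMIs per cell 7 of the other members could be tested, and 0 passed by edgeR, 0 at an unadjusted p under 0.05 and 0 by DESeq2, with log2 fold changes from -0.64 for Noc4l to 0.17 for Odc1. Of all 6427 genes tested 0.0156% rose and 0% fell, the 1 gene that rose being Mycn itself, which made the split. For a Myc UMI, 0 of 7 members passed by edgeR and by DESeq2 and 1, Npm1, had an unadjusted p under 0.05 (log2 fold change -0.21, adjusted p = 0.812), where 0.0186% of 5387 genes rose, again Myc itself, and 0.0371% fell. A cell without a UMI of a gene at this level may still express it, so these splits separate expression states only in part.

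Between mitotic and other Sox9-high cells 2 of the 10 members passed the test, of which Odc1 rose and Nolc1 fell, where 5.08% of 10896 genes rose and 5.88% fell. Odc1 was at 227, 213 and 223 CPM in mitotic Sox9-high cells, against 158, 157 and 208 CPM in the other Sox9-high cells (log2 fold change 0.27, SE 0.06, edgeR adjusted p = 0.00183). Its mitotic values did not overlap the others, with ratios of 1.44 and 1.36 in Epcam+ Icam+ libraries 1 and 2, against 1.07 for Epcam+. Nolc1 was at 60.5, 69.3 and 114 CPM in mitotic cells and 67.2, 67.7 and 144 CPM in the others, so it was lower in 2 libraries and not in Epcam+ Icam+ library 2 (log2 fold change -0.25, SE 0.07, adjusted p = 0.0174). Mycn was at 24.5, 24.1 and 51.5 CPM in mitotic cells, above the 18.8, 21.9 and 43.0 CPM of the others in each library, and missed the threshold (log2 fold change 0.23, SE 0.10, adjusted p = 0.16). Myc was at 12.9, 7.02 and 5.88 CPM in mitotic cells and 12.4, 14.52 and 8.88 CPM in the others (log2 fold change -0.53, SE 0.19, adjusted p = 0.0587). Without Epcam+ Icam+ library 1 neither call was made (adjusted p = 0.193 for Odc1 and 0.0914 for Nolc1). Without the Epcam+ library the Nolc1 call was lost (0.542), while Ncl (log2 fold change 0.15, adjusted p = 0.0139) and Npm1 (-0.15, adjusted p = 0.000273) passed. DESeq2 called 0 of the 10. At an M-phase gate of 2000 CPM, which left Epcam+ Icam+ library 2 with too few mitotic Sox9-high cells (23), the log2 fold change of Odc1 was 0.045 (adjusted p = 0.873). The Nolc1 call was lost at a gate of 500 CPM (0.0676) and at clustering resolutions of 0.5 (0.114) and 2 (0.148). Myc passed as lower without a filter on low counts (0.0458), with cells of at least 5000 UMIs (-0.72, adjusted p = 0.0024), with doublets kept (0.00562) and at a resolution of 0.5 (0.0189), and Mycn passed as higher with cells of at least 5000 UMIs (0.34, adjusted p = 0.0184). Median depth was 32709.5, 35416.5 and 33437.5 UMIs per mitotic cell.

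Among dividing cells of the Epcam+ Icam+ libraries Myc was again lower in Sox9-high than in airway-like cells. In all mitotic epithelial cells Mycn was at 18.05, 17.0 and 45.4 CPM and Myc at 16.2, 16.5 and 8.24 CPM. Mitotic cells of the airway-like clusters of Epcam+ Icam+ libraries 1 and 2 had Myc at 32.7 and 41.4 CPM (63 and 30 cells). In mitotic cells of Sox9-high clusters 0 of library 1 and 9 of library 2, Myc was at 12.1 and 5.69 CPM. Dividing airway-like cells formed no class of their own in the tests, and these levels are given as values. Their Mycn level, and their Myc level in the Epcam+ library, are not given here.

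Macrophage-like cells had little Mycn and differed in single members from the epithelium. Mycn was at 18.8, 21.9 and 43.0 CPM in Sox9-high cells, against 1.59, 1.20 and 5.25 CPM in macrophage-like cells, with 19, 14 and 7 UMIs behind the last 3 values. The groups did not overlap (log2 fold change 3.30, SE 0.24, edgeR adjusted p = 9.53e-07). Epcam itself was at 1072, 1031 and 1000 CPM in Sox9-high cells and at 26.2, 23.7 and 63.0 CPM in macrophage-like cells. The last 3 values were held low by a filter, since barcodes of macrophage-like clusters with at least 200 CPM of Epcam had been left out (115, 90 and 93). The part of free or carried-over epithelial RNA in the Mycn of macrophage-like cells was not tested. Npm1 was at 1671, 1680 and 1663 CPM and Nop56 at 49.2, 52.3 and 94.5 CPM in macrophage-like cells, below the Sox9-high level of each library. They rose in Sox9-high cells by 0.58 on the log2 scale (SE 0.10, adjusted p = 0.00067) and 0.82 (SE 0.13, adjusted p = 0.000303). Myc was at 12.4, 14.52 and 8.88 CPM in Sox9-high cells and at 6.62, 5.33 and 7.50 CPM in macrophage-like cells (log2 fold change 0.63, SE 0.23, adjusted p = 0.0349). That call was lost without Epcam+ Icam+ library 1 (adjusted p = 0.143) or 2 (0.498), with DESeq2 (0.176), at a resolution of 2 (0.079) and when barcodes that mixed epithelial and macrophage RNA were kept, an alternative added after seeing the data (0.478). The Nop56 call was lost without library as a term (0.105). In all, 4 of the 10 rose in Sox9-high cells and 0 fell, where 32.8% of 12497 genes rose and 33.8% fell, so the members' count was near the background.

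Odc1 and Nolc1 took opposite directions between libraries in this comparison. Odc1 was at 158, 157 and 208 CPM in Sox9-high cells, against 322, 323 and 104 CPM in macrophage-like cells, so the macrophage-like level was the higher in both Epcam+ Icam+ libraries and the lower in the Epcam+ library. Nolc1 was at 67.2, 67.7 and 144 CPM in Sox9-high cells, against 71.7, 68.8 and 78.8 CPM. Over all 3 libraries neither passed (log2 fold change -0.80 for Odc1, SE 0.37, edgeR adjusted p = 0.0795, and -0.13 for Nolc1, SE 0.21, adjusted p = 0.603). Odc1 did pass as lower without a filter on low counts (-0.82, adjusted p = 1.42e-05) and at a clustering resolution of 0.5 (0.0479). Without the Epcam+ library 7 of the 10 passed, among them Odc1 at -1.45 (adjusted p = 1.08e-17), Nolc1 at -0.47 (adjusted p = 5.44e-06) and Ncl at 0.11 (adjusted p = 0.000216). Srm was at 47.4, 47.3 and 108 CPM, Ncl at 737, 730 and 652 CPM, Noc4l at 12.3, 11.8 and 25.5 CPM and Rrp12 at 5.70, 4.47 and 3.001 CPM in macrophage-like cells. None of these 4 passed over all 3 libraries (adjusted p = 0.338, 0.0695, 0.323 and 0.832). With cells of at least 5000 UMIs Srm (0.0131) and Ncl (0.0197) passed as higher in Sox9-high cells, and Ncl did so with another scaling (0.022).

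Between the sorts, most members were lower in the Epcam+ Icam+ libraries within the same epithelial class. In Sox9-high cells Srm was at 62.0 and 61.8 CPM in the Epcam+ Icam+ libraries, against 191 CPM in the Epcam+ library (log2 fold change -1.73, SE 0.09, edgeR adjusted p = 4.45e-84). Mycn was at 18.8 and 21.9 CPM, against 43.0 CPM in the Epcam+ library (log2 fold change -1.18, SE 0.14, adjusted p = 2.53e-17). The Epcam+ value lay outside both Epcam+ Icam+ values for each of the 10 genes except Npm1, which was at 3100 and 3228 CPM against 3186 CPM (log2 fold change -0.11, SE 0.08, adjusted p = 0.212). Noc4l (-1.57, SE 0.14), Nolc1 (-1.19, SE 0.09), Nop56 (-1.13, SE 0.08), Rrp12 (-0.81, SE 0.28), Odc1 (-0.50, SE 0.08) and Ncl (-0.41, SE 0.07) also fell, each with an adjusted p of 0.00728 or lower. The Rrp12 call was lost with DESeq2 (adjusted p = 0.336) and with doublets kept (-0.47, adjusted p = 0.275). Myc alone was higher, at 12.4 and 14.52 CPM against 8.88 CPM (log2 fold change 0.50, SE 0.21, adjusted p = 0.0306). That call was lost with DESeq2 (adjusted p = 0.456), without a filter on low counts (0.126), with doublets kept (0.214) and at clustering resolutions of 0.5 (0.0662) and 2 (0.122). Thus 8 of the 10 fell and 1 rose, where 33.6% of 11056 genes fell and 34.5% rose. The sort, the library, the Cell Ranger version (5.0.1 for the Epcam+ Icam+ libraries and 3.0.2 for the Epcam+ library, per the file headers) and the gene table cannot be told apart in this comparison, which had 1 residual degree of freedom and a single Epcam+ library. The Sox9-high cells also differed between the sorts in their leading genes and in their Sftpc level, as given above. The part of that difference in these values was not tested.

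Airway-like and mitotic epithelial cells differed between the sorts in the same direction for these genes, although the comparisons share libraries. In airway-like cells Srm was at 20.2 and 27.3 CPM in the Epcam+ Icam+ libraries against 91.0 CPM in the Epcam+ library (log2 fold change -2.06, SE 0.26, edgeR adjusted p = 7.32e-14). Myc was at 48.9 and 48.4 CPM against 19.3 CPM (log2 fold change 1.24, SE 0.29, adjusted p = 0.000135). Of the 10, Mycn, Srm, Nop56, Nolc1 and Noc4l fell and Myc rose, where 18.1% of 11908 genes fell and 20.5% rose, and Odc1, Ncl, Npm1 and Rrp12 did not pass (adjusted p = 0.0894, 0.263, 0.586 and 0.566). The Mycn call was lost with DESeq2 (adjusted p = 0.0521). In mitotic epithelial cells Srm was at 42.6 and 39.0 CPM against 149 CPM (log2 fold change -2.03, SE 0.09, adjusted p = 4.49e-101), Mycn at 18.05 and 17.0 CPM against 45.4 CPM (-1.53, SE 0.13, adjusted p = 1.07e-32) and Myc at 16.2 and 16.5 CPM against 8.24 CPM (0.83, SE 0.19, adjusted p = 2.71e-05). There 9 of the 10 fell and 1 rose, where 34.9% of 11792 genes fell and 35.5% rose. DESeq2 called 7, without Myc (adjusted p = 0.09), Odc1 (0.0929) and Rrp12 (0.269). The Odc1 and Rrp12 calls were also lost with cells of at least 5000 UMIs (0.124 and 0.083) and at an M-phase gate of 2000 CPM (0.115 and 0.347). The mitotic epithelial class was not made up alike in the 2 sorts. Mitotic Sox9-high cells were 90 of its 217 cells and 62 of its 212 with Epcam+ Icam+ sorting, against 270 of 397 with Epcam+ sorting. The part of this unequal make-up in the mitotic values was not tested. The sort difference in Sox9-high cells minus that in airway-like cells was called for 0 of the 10 by edgeR and by DESeq2, with Myc the 1 at an unadjusted p under 0.05 (-0.81, SE 0.33, adjusted p = 0.287). In that test 1.68% of 12019 genes were higher and 0.591% lower.

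**Figure D5:**
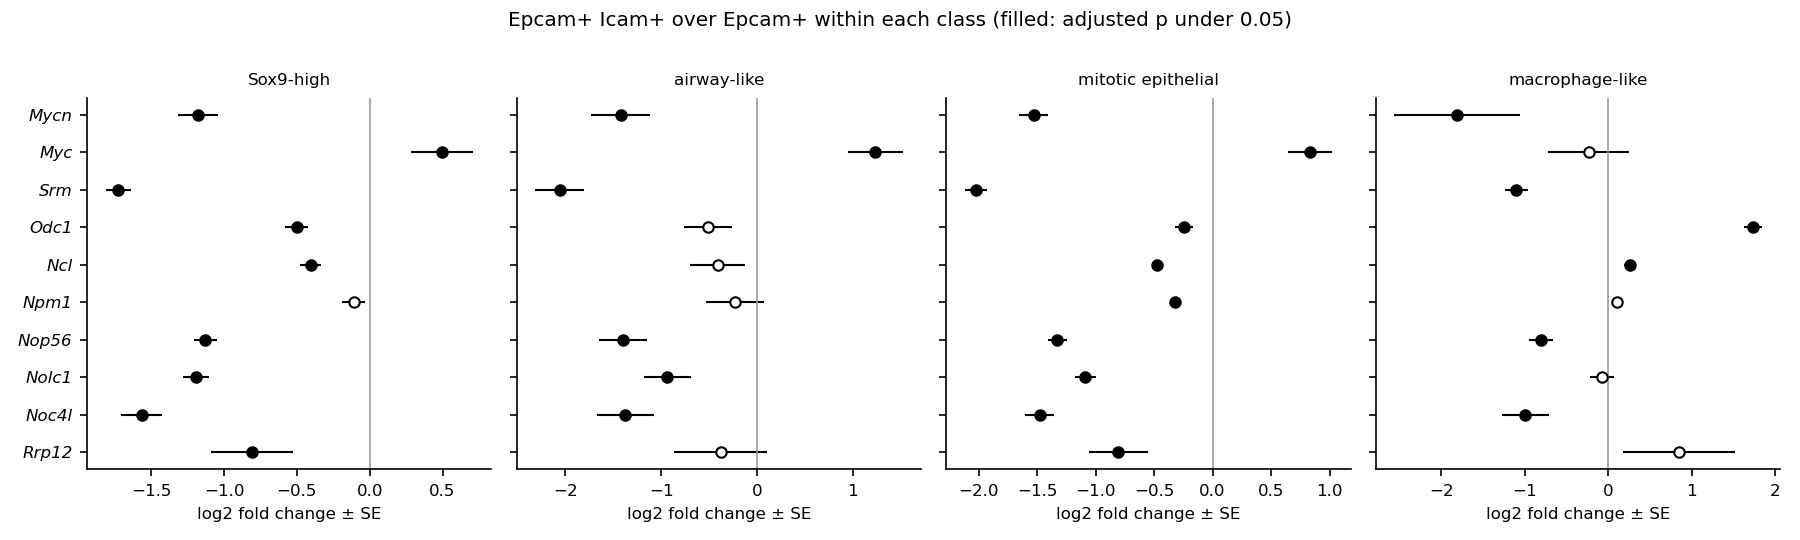
Log2 fold changes of the 10 genes, Epcam+ Icam+ over Epcam+, within 4 cell classes. The x axes give the edgeR estimate with its standard error as a bar, and filled points passed an adjusted p of 0.05. Srm, Mycn and Noc4l lie left of 0 in all 4 classes, while Odc1 lies at 1.73 in macrophage-like cells and at -0.50 in Sox9-high cells.

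Macrophage-like cells showed another pattern between the sorts. Odc1 was at 322 and 323 CPM in the Epcam+ Icam+ libraries, against 104 CPM in the Epcam+ library, a rise by 1.73 on the log2 scale (SE 0.11, edgeR adjusted p = 4.61e-54). Srm was at 47.4 and 47.3 CPM against 108 CPM (log2 fold change -1.10, SE 0.14, adjusted p = 1.3e-13), and Nop56 at 49.2 and 52.3 CPM against 94.5 CPM (-0.81, SE 0.15, adjusted p = 2.74e-07). Ncl rose at 0.26 (SE 0.07, adjusted p = 0.000413). Noc4l (-0.99, SE 0.28, adjusted p = 0.00209) and Mycn (-1.81, SE 0.75, adjusted p = 0.0417, with 7 UMIs in the Epcam+ library) fell. In total 2 rose and 4 fell, where 22.9% of 12016 genes rose and 17.9% fell. DESeq2 called 3 of the 10. The Ncl call was lost with DESeq2 (adjusted p = 0.0771), with cells of at least 5000 UMIs (0.211), with doublets kept (0.318) and with mixed barcodes kept (0.852). The Noc4l call was lost with DESeq2 (0.113). The Mycn call was lost without a filter on low counts (0.0795), with cells of at least 5000 UMIs (0.083) and with doublets kept (0.0785).

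The sort difference in Sox9-high cells was tested directly against that in macrophage-like cells. It was lower in Sox9-high cells for 5 of the 10 and higher for 0, where 9.06% of 13081 genes were lower and 2.01% higher. The median over all genes was itself at -0.24 in this test and moved by 0.15 with another scaling, so values are also given relative to it. Odc1 differed by -2.31 (SE 0.12, edgeR adjusted p = 1.19e-18), or -2.07 relative to that median, and Nolc1 by -1.19 (SE 0.16, adjusted p = 3.92e-07), or -0.96. Ncl (-0.74, SE 0.07, adjusted p = 2.83e-11), Srm (-0.70, SE 0.15, adjusted p = 0.000813) and Npm1 (-0.29, SE 0.05, adjusted p = 9.38e-05) stood at -0.51, -0.47 and -0.05 relative to it. The calls for Odc1 and Nolc1 were kept in each alternative that gave this result a test, whereas the others were each lost in some, such as Srm with DESeq2 (adjusted p = 0.23), Ncl with cells of at least 5000 UMIs (0.0638) and Npm1 with the other scaling (0.0922). Mycn (0.55, SE 0.64, adjusted p = 0.69) and Myc (0.66, SE 0.55, adjusted p = 0.545) did not pass, although Mycn did with mixed barcodes kept (1.85, adjusted p = 0.00119).

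Other genes of the same pathways moved with the members between epithelial classes. Of 145 other genes of ribosome biogenesis and polyamine metabolism tested over airway-like cells, 46 rose in Sox9-high cells and 0 fell. Their median log2 fold change was 0.33 against 0.00 over all genes, and their share of risers stood against the 12.4% of all genes that rose. By group, members included, 19 of 57 genes of large-subunit assembly rose, 13 of 50 of the small-subunit processome, 11 of 16 of the box C/D and H/ACA particles, 6 of 13 of polyamine metabolism and 3 of 17 of RNA polymerase I, and none fell. Fbl, the methyltransferase of box C/D particles, rose by 0.63 (SE 0.09, edgeR adjusted p = 0.00122). Gar1 (0.65, SE 0.12, adjusted p = 0.00497) and Dkc1 (0.60, SE 0.11, adjusted p = 0.00352), both of the H/ACA particles that pseudouridylate RNA, rose too. Bop1, needed for large-subunit ribosomal RNA processing, rose by 0.78 (SE 0.14, adjusted p = 0.00379), Tcof1, a cofactor of RNA polymerase I, by 0.59 (SE 0.12, adjusted p = 0.00786) and Sms, spermine synthase, by 0.62 (SE 0.12, adjusted p = 0.00585). Without Epcam+ Icam+ library 1 only 4 of these other genes rose, against 48 without library 2 and 27, with 4 that fell, without the Epcam+ library. DESeq2 called 25 higher, and the fit without library as a term 0.

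The Myc network itself moved differently. Of its 12 genes, Mycn rose and Myc, Mycl and Mxd4 fell in Sox9-high cells relative to airway-like cells, where 12.4% of all genes rose and 11.9% fell. Mycl, another member of the family, was at 0.741, 0.246 and 2.099 CPM (3, 1 and 26 UMIs) in Sox9-high cells, against 32.5, 52.7 and 22.8 CPM in airway-like cells (log2 fold change -4.41, SE 0.42, edgeR adjusted p = 0.000133). Mxd4, which competes for Max and represses E-box genes, was at 59.8, 55.6 and 19.2 CPM in Sox9-high cells, against 135, 121 and 69.4 CPM in airway-like cells (-1.33, SE 0.14, adjusted p = 0.000243). The airway-like class therefore had the higher level of Myc, Mycl and Mxd4, and the lower level of Mycn, within every library. Of 20 other known Myc target genes 15 rose and 1 fell, against the same background. Tfrc, the transferrin receptor, rose by 1.32 (SE 0.14, adjusted p = 0.000215) and Mthfd2, a mitochondrial folate enzyme, by 1.30 (SE 0.17, adjusted p = 0.000731). Ccnd2, cyclin D2, was the 1 that fell, at 172, 176 and 120 CPM in Sox9-high cells against 902, 990 and 1010 CPM in airway-like cells (-2.60, SE 0.13, adjusted p = 5.31e-06).

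Over Hopx/Clic5-positive cells 36 of 143 other ribosome biogenesis and polyamine genes rose and 1, Ddx47, fell (median log2 fold change 0.34), where 8.78% of all genes rose. DESeq2 called 3 higher and 0 lower. Ddx51, an RNA helicase of large-subunit assembly (1.64, SE 0.37, edgeR adjusted p = 0.000178), Pwp2, known from yeast in the small-subunit processome (1.61, SE 0.41, adjusted p = 0.00118) and Amd1, which makes the aminopropyl donor for spermidine (0.86, SE 0.18, adjusted p = 2.21e-05), were among the risers. In mitotic over other Sox9-high cells 9 of 145 rose and 5 fell (median 0.07), where 5.08% of all genes rose and 5.88% fell, so the counts were near the background. Of these genes 0 passed in either direction without Epcam+ Icam+ library 1. Mxd3, a repressive Max partner known from proliferating cells, rose there by 0.93 (SE 0.19, adjusted p = 0.000291). Over macrophage-like cells 22 of 145 rose and 34 fell (median -0.11), where 32.8% of all genes rose and 33.8% fell, so both shares were below the background. Max was at 24.7, 18.7 and 51.5 CPM in Sox9-high cells, against 58.4, 51.1 and 107 CPM in macrophage-like cells (-1.58, SE 0.15, adjusted p = 8.86e-06), and Mxd1 at 13.1, 16.5 and 2.42 CPM against 48.6, 58.4 and 12.8 CPM (-2.33, SE 0.16, adjusted p = 7.27e-07). The number that fell was 15, 13 and 61 without Epcam+ Icam+ library 1, library 2 and the Epcam+ library, and 13 with mixed barcodes kept.

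Between the sorts, 87 of 145 other ribosome biogenesis and polyamine genes fell in Sox9-high cells of the Epcam+ Icam+ libraries and 17 rose (median log2 fold change -0.49), where 33.6% of all genes fell and 34.5% rose. Among them Nop2 (-1.81, SE 0.16, edgeR adjusted p = 1.53e-29), Polr1c, a subunit of RNA polymerases I and III (-1.67, SE 0.10, adjusted p = 6.38e-60), and Eif5a, the protein that carries the spermidine-derived hypusine (-1.13, SE 0.07, adjusted p = 9.32e-52), fell. Azin1, which shields Odc1 from degradation (0.93, SE 0.12, adjusted p = 1.41e-13), and the large assembly factor Mdn1 (1.41, SE 0.18, adjusted p = 6.56e-14) rose. In airway-like cells 52 fell and 5 rose (median -0.40), where 18.1% of all genes fell and 20.5% rose. In mitotic epithelial cells, whose share of Sox9-high cells differed between the sorts, 93 fell and 13 rose (median -0.54), where 34.9% fell and 35.5% rose. In macrophage-like cells 49 fell and 17 rose (median -0.12), where 17.9% fell and 22.9% rose. In the Myc network, Max was at 24.7 and 18.7 CPM in Sox9-high cells of the Epcam+ Icam+ libraries against 51.5 CPM in the Epcam+ library (-1.35, SE 0.13, adjusted p = 2.27e-24). Mxd1, which is not a partner of Myc itself, was at 13.1 and 16.5 CPM against 2.42 CPM (2.50, SE 0.29, adjusted p = 2.35e-17).

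Across the 14 combinations of class and library used for likeness, the genes closest to Mycn in log2(CPM + 5), centred within each library, were Zfp24, Pla2g12a, Mfge8, Morf4l2 and Ppa1, with Pearson's r from 0.985 to 0.990 among 5349 genes. Of the other members Nop56 (0.974), Npm1 (0.930), Ncl (0.780) and Noc4l (0.763) were the closest to Mycn, while Rrp12 (0.476), Myc (0.337), Srm (0.211), Nolc1 (0.123) and Odc1 (-0.18) followed. The genes closest to Myc were Rmnd5a, Il6st, Vps37a, Mob1b and Ube2h (0.952 to 0.967). The sum of the 8 nucleolar and polyamine members had r = 0.882 with Mycn and -0.11 with Myc. These points share libraries and their depth, and macrophage-like cells, which have little Mycn, weigh on them, so the values describe likeness only.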

How the data were processed

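The files deposited by the authors hold UMI counts, 1 value for a gene in a barcode, of 10x Genomics 3′ libraries. Per the submitters' processing notes Cell Ranger 2.1.1 was run on mm10. The file headers name version 5.0.1 for the Epcam+ Icam+ matrices (32285 genes) and version 3.0.2 for the Epcam+ matrix (31053 genes). How the barcode lists were drawn up is not stated by any source used here, and free RNA was not removed.

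Barcodes with at least 1000 UMIs, 500 genes and at most 10% mitochondrial UMIs were kept (3395, 3161 and 2990). The highest doublet scores, 0.8% per 1000 barcodes, were left out (129, 115 and 88 cells), as were 148, 105 and 120 mixed barcodes. These were barcodes of macrophage-like clusters with at least 200 CPM of Epcam, or of epithelial clusters with at least 200 CPM of macrophage markers. The libraries shared 3, 0 and 1 barcodes in pairs. Each library was clustered alone, first all cells and then the epithelium (scanpy 1.11.5, igraph 0.11.9, Python 3.11.15, 2000 variable genes, 30 components, 15 neighbours, resolution 1, seed 1). Members, pathway, cell cycle, histone, ribosomal protein and mitochondrial genes were left out and the cycle scores were regressed out. A cluster took the name of the list with the most markers raised by a log2 of 0.5 (pseudocount 5 CPM, at least 3), and 1603, 920 and 1513 cells stayed unnamed. The second clustering, the mixed barcode filter, the histone exclusion and the regression were chosen after seeing the data. In the Sox9-high clusters 39, 29 and 128 of 321, 237 and 657 cells lay between 750 and 1250 CPM of M-phase genes, and 92 and 140 distal cells between 150 and 250 CPM of Hopx and Clic5.

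Counts were summed per library and class of at least 30 cells and tested with edgeR 4.0.16 (R 4.3.3, quasi-likelihood, TMM, filterByExpr, Benjamini-Hochberg at 0.05) over all genes, with library as a term between classes. DESeq2 1.42.0 was an alternative. The edgeR step was run on simulated counts. Their spread between samples was set below that estimated over airway-like cells (coefficient of variation 12.0%), so the run does not show how the tests behave here. The genes named are the 10 members and, of each pathway list, genes among the 3 largest called changes in each direction. The members and lists were chosen with earlier results of these data known. Gene positions are from GENCODE (GRCm38) and figures were drawn with matplotlib 3.10.9.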

Additional observations from a re-analysis of the deposited data

Results flagged for a closer look

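For 5 of the 10 members the difference between the sorts (Epcam+ Icam+ over Epcam+) was not the same in Sox9-high cells as in macrophage-like cells, by edgeR's test of the difference itself. Sox9-high minus macrophage-like, it was -2.31 for Odc1 and -1.19 for Nolc1 on the log2 scale, and -0.74 for Ncl, -0.70 for Srm and -0.29 for Npm1. Odc1 fell in Sox9-high cells (-0.50) and rose in macrophage-like cells (1.73), whereas Srm fell in both (-1.73 and -1.10). Nolc1 fell in Sox9-high cells (-1.19) and stood at -0.08 in macrophage-like cells (SE 0.15, adjusted p = 0.719). Ncl fell in Sox9-high cells (-0.41) and rose in macrophage-like cells (0.26), a call lost with DESeq2 (adjusted p = 0.0771), with cells of at least 5000 UMIs (0.211), with doublets kept (0.318) and with mixed barcodes kept (0.852). Npm1 stood at -0.11 and 0.10, neither of which passed (adjusted p = 0.212 and 0.142), and at -0.05 relative to the median of all genes in this test. The Epcam+ side rests on 1 library, with 53 macrophage-like cells.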

How the results depend on the processing

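No single-gene result that passed its test changed direction under an alternative that gave a value. Of the single-gene results under alternatives, 1067 kept their direction and, where the alternative gave a test, their side of the threshold. Another 80 lost the threshold and 28 gained it. The other 50 changed direction, and these were called neither in the main fit nor under the alternative. The number of members called over airway-like cells was 8, with 6 to 8 on leaving out a library, and 0 without library as a term. Over Hopx/Clic5-positive cells it was 7, and 2 with DESeq2. For mitotic Sox9-high cells it was 2. It became 0 with DESeq2 and without library as a term, 4 with cells of at least 5000 UMIs, 1 at resolution 2 and at M-phase gates of 500 and 2000 CPM, and 0 to 3 on leaving out a library. Over macrophage-like cells it was 4, with 2 without library as a term and 3 to 7 on leaving out a library (7 without the Epcam+ library). Between the sorts in macrophage-like cells it was 6, and 3 with DESeq2. The difference of sort differences against macrophage-like cells called 5, and 3 with DESeq2, 2 with cells of at least 5000 UMIs and 2 with doublets kept. Against airway-like cells it called 0, and 1 (Srm) at resolution 0.5. The split by a Myc UMI called 0, and 1 (Npm1) with no filter on low counts. The cause was not tested. Leaving out an Epcam+ Icam+ library left the Hopx/Clic5 and sort comparisons no residual degrees of freedom, and the Epcam+ library cannot be left out of a sort comparison. Cells of at least 5000 UMIs were clustered anew, which named only 6 cells of Epcam+ Icam+ library 2 airway-like. The airway-like comparison then rested on 2 libraries and the sort tests with that class had no residual degrees of freedom. Mitotic Sox9-high cells of that library were too few at an M-phase gate of 2000 CPM (23) and with doublets kept (10), so those fits rested on 2 libraries too. No paired analysis was possible because replicate numbers stand in the labels of 1 sort alone, so the sorts share fewer than 2 numbers. Counts were low for Rrp12 (4.69 to 8.48 CPM in Sox9-high cells) and for Mycn in macrophage-like cells (19, 14 and 7 UMIs).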
